A study of Rana omeimontis with 6 samples.

Results

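The transcripts for the enzymes that build purine and pyrimidine nucleotides were followed in liver of tadpoles of the frog Rana omeimontis, before and after the fat accumulation that belongs to larval development. A set of 10 enzymes was sought by protein name in a table of 121726 transcript clusters, here called features, by reading the first protein description of each. Of the 10 names, 7 were matched, by 14 features, and 9 of these, covering all 7 names, reached 1 FPKM or more in at least 3 of 6 libraries and are called measured. FPKM is the number of sequenced fragments scaled for transcript length and library total. The trifunctional protein adenosine-3, the multifunctional protein ADE2 and uridine 5'-monophosphate synthase matched no feature and were not analysed here. A feature was assigned to an enzyme by its name alone, whereas the set of enzymes was drawn up with earlier results of these data known.

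The series holds 6 poly-A selected liver libraries, 3 labelled as taken before the ontogenetic fat accumulation and 3 as taken after it, and its title concerns hepatic fat, growth and energy from lipids. All 6 carry the same collection site, a nature reserve in Sichuan, and no genotype or treatment is named. Developmental stage numbers and ages are not given in the labels, nor is it stated whether a library is 1 animal or a pool, so the p-values measure the spread between these libraries, which may be technical. The FPKM of all features added up to between 1396950 and 1442121 in the libraries before and between 1358665 and 1382059 in those after. These totals did not overlap between the stages. The main fit took the values as given, and scaling to equal totals was among the alternatives. Before replicate 3 had 49148 features at 1 FPKM or more, while the other libraries had 37208 to 42276. The number of reads behind a value is unknown, and low values are the least precise. Exocrine pancreas markers made up 21.4% to 33.3% of the summed FPKM, and the labels do not say whether pancreas was taken with the liver, so each level is that of the sampled tissue and cannot be assigned to liver cells.

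Cells make purines by building the ring stepwise on a ribose phosphate, through a chain of enzymes that ends at inosine monophosphate, from which one branch leads to adenine and the other to guanine nucleotides. Pyrimidines are made the other way round, with a free ring joined to the sugar late in the route, giving uridine nucleotides from which CTP synthase makes cytidine nucleotides. The liver is a main site of purine synthesis in vertebrates. It supplies other tissues and also degrades purines for excretion. These pathways also feed RNA and DNA synthesis in dividing cells.

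After fat accumulation the transcript for CTP synthase 1 stood at about 4 times its earlier level, and it was the only enzyme of the 7 to pass the test, with the features of each enzyme summed. Adenylosuccinate lyase was lower and amidophosphoribosyltransferase and PURH were higher in all 3 later libraries than in any earlier one, but none of these differences passed the threshold. Inosine-5'-monophosphate dehydrogenase 2, the most abundant of the enzymes at both stages, showed overlapping stages. Differences (after minus before) were taken on log2(FPKM + 1), a scale on which changes of low genes come out too small, and were tested with limma over all 40548 measured features of the table with Benjamini-Hochberg adjustment and a threshold of 0.05. Across all measured features, 4.64% were higher and 4.00% lower after fat accumulation, and the median difference was -0.08.

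**Figure D1:**
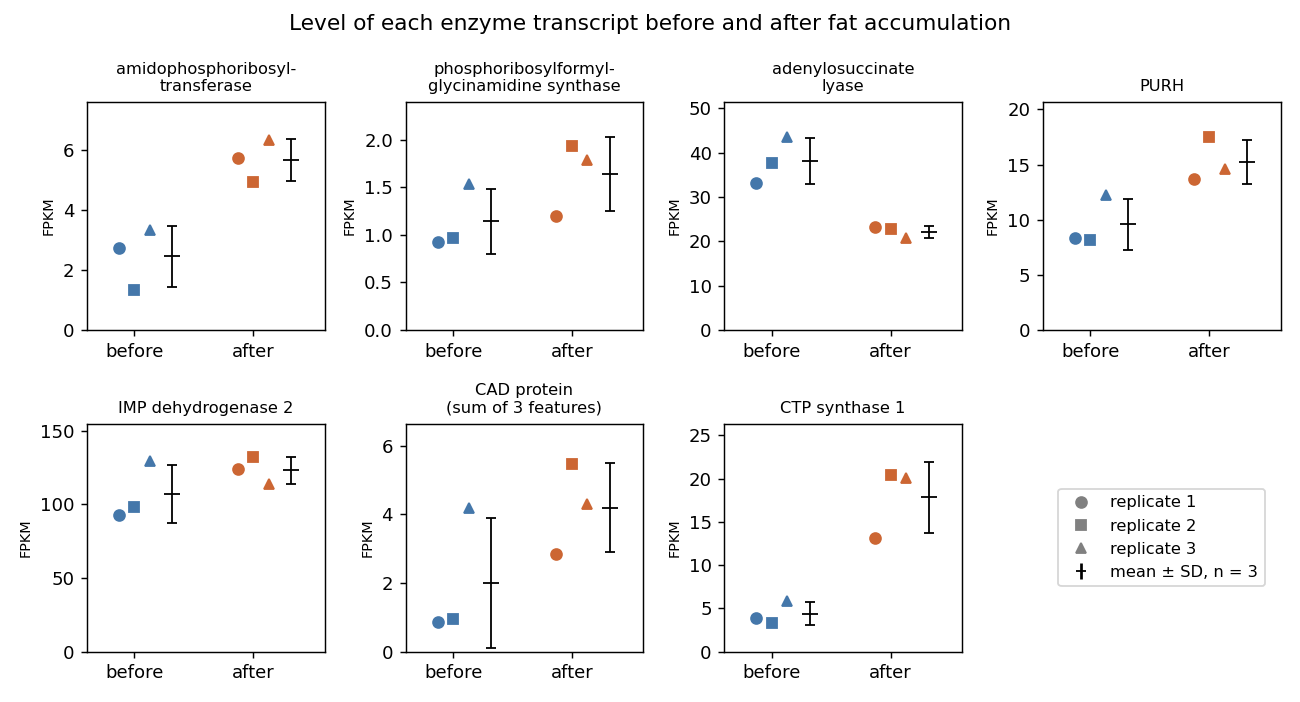
FPKM (y axis, from 0, a separate scale for each enzyme) of the 7 matched enzymes in each of 3 libraries before (blue) and after (orange) fat accumulation; marker shapes give the replicate and the bar the mean ± SD (n = 3). CTP synthase 1 lies between 3.33 and 5.91 before and between 13.1 and 20.4 after, while adenylosuccinate lyase goes from 33.1 or more to 23.2 or less.

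The first enzyme of the purine route, amidophosphoribosyltransferase (feature Cluster-38485.0), takes the ribose phosphate donor into the pathway and is its main point of feedback control. It measured 2.72, 1.32 and 3.31 FPKM in before replicates 1 to 3 and 5.73, 4.93 and 6.31 FPKM in after replicates 1 to 3. The lowest later library was above the highest earlier one. The means were 2.45 ± 1.02 and 5.66 ± 0.693 FPKM (SD, n = 3 each), 2.31 times as high after, with a log2 difference of 0.99 ± 0.298 (SE, limma, adjusted p = 0.0895). That difference passed in 2 alternatives, median-of-ratios scaling (adjusted p = 0.0465) and quantile normalization (0.0471), and the highest adjusted p among all alternatives was 0.228.

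Phosphoribosylformylglycinamidine synthase, which adds a nitrogen from glutamine in the middle of the route, was low. Its measured feature (Cluster-8914.42035) gave 0.92, 0.97 and 1.53 FPKM before and 1.2, 1.93 and 1.78 FPKM after. The stages overlapped. The log2 difference was 0.30, with a 95% interval from -0.32 to 0.93 (limma, adjusted p = 0.522). Another 3 features with this description lay below the limit of 1 FPKM in 3 libraries. With all 4 features summed the stages no longer overlapped, at 1.2, 1.78 and 1.53 FPKM before and 2.08, 2.39 and 2.75 FPKM after, and the difference was 0.45 (adjusted p = 0.294). The nearest of them to that limit was 0.28, 0.39 and 0 FPKM before and 0.88, 0.46 and 0.51 FPKM after, while the measured feature itself passed it in 4 libraries.

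Adenylosuccinate lyase (feature Cluster-8914.20955) splits fumarate from a precursor in the ring-building route and again in the step that makes AMP, so it serves both. Its level was 33.1, 37.7 and 43.6 FPKM before and 23.2, 22.7 and 20.6 FPKM after. Every later library was below every earlier one, and the later libraries lay close together. The means were 38.2 ± 5.25 and 22.2 ± 1.36 FPKM (SD, n = 3 each), 1.72 times as high before. The log2 difference was -0.75 ± 0.181 (SE, 95% interval -1.18 to -0.32), just outside the threshold (limma, adjusted p = 0.0523). It passed in 4 of the alternatives: with median-of-ratios scaling (0.0391), with quantile normalization (0.0214), with scaling that leaves out transcripts of digestive enzymes (0.0353) and with a filter at 5 FPKM (limma, adjusted p = 0.0296). The highest adjusted p over the alternatives was 0.160.

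PURH, the bifunctional enzyme of the last steps to inosine monophosphate, acts directly after adenylosuccinate lyase in the ring-building route. Its feature (Cluster-8914.22765) measured 8.30, 8.20 and 12.2 FPKM before and 13.7, 17.5 and 14.6 FPKM after. The stages did not overlap, though before replicate 3 came near the lowest later library. The log2 difference was 0.63 ± 0.231 (SE, limma, adjusted p = 0.140), which passed with median-of-ratios scaling (0.0492). The highest adjusted p among the alternatives was 0.326.

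Within a library, the level of PURH could be set against that of adenylosuccinate lyase, the enzyme of the preceding step, since FPKM is scaled per length and a ratio within a library does not depend on the library's scaling factor. The ratio was 0.251, 0.217 and 0.280 before and 0.591, 0.769 and 0.706 after, with means of 0.249 ± 0.0315 and 0.689 ± 0.0907 (SD, n = 3 each). Adenylosuccinate lyase was thus the more abundant of the pair in all 6 libraries, by a smaller margin after fat accumulation. This ratio was chosen after its values were seen and is a description with no test.

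Inosine-5'-monophosphate dehydrogenase 2, here IMPDH2 (feature Cluster-8914.33162), opens the branch to guanine nucleotides and is its rate-limiting step. It measured 93.1, 98.1 and 129.6 FPKM before and 124.1, 131.9 and 113.7 FPKM after. Before replicate 3 lay among the later libraries. The log2 difference was 0.22, with a 95% interval from -0.22 to 0.65 (limma, adjusted p = 0.505), so a rise of more than 0.65 or a fall of more than 0.22 lay outside the interval. The opening enzyme of the other branch, adenylosuccinate synthetase isozyme 1, measured 56.9 ± 10.7 FPKM before and 58.9 ± 4.75 FPKM after (log2 difference 0.06, 95% interval -0.40 to 0.52, adjusted p = 0.872). IMPDH2 stood at 1.97, 1.78 and 1.89 times the level of that enzyme before and at 2.04, 2.12 and 2.13 times after, in ratios chosen after their values were seen. These ratios did not overlap between the stages, by a narrow margin, and were not tested.

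**Figure D2:**
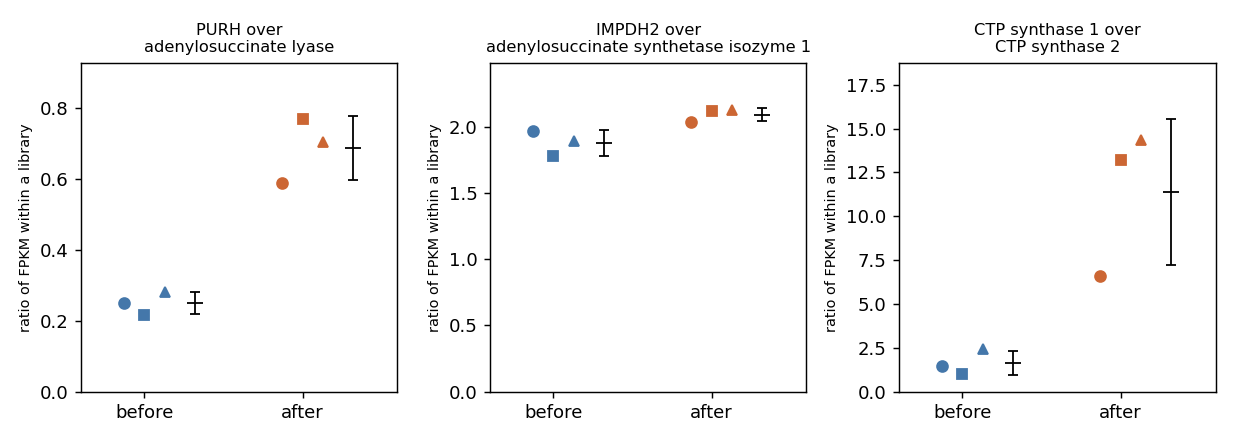
Ratios of FPKM within each library (y axis, from 0) for 3 pairs of enzymes, before (blue) and after (orange) fat accumulation, with marker shapes for the replicates and the mean ± SD (n = 3). PURH over adenylosuccinate lyase goes from 0.280 or less to 0.591 or more, and CTP synthase 1 over CTP synthase 2 from 2.41 or less to 6.62 or more. IMPDH2 over adenylosuccinate synthetase goes from 1.97 or less to 2.04 or more, within a range of 1.78 to 2.13.

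The pyrimidine route begins with CAD protein, a single large polypeptide that carries the activities for its opening steps. It was split over 5 features, of which 3 were measured, so its level is uncertain. Feature 1 (Cluster-8914.43963) gave 0.24, 0.64 and 1.91 FPKM before and 0.32, 1.10 and 1.10 FPKM after. Feature 2 (Cluster-8914.46247) gave 0.42, 0.30 and 2.28 FPKM before and 0.43, 1.92 and 2.16 FPKM after. Both were high in before replicate 3 and in after replicates 2 and 3, and low in after replicate 1, so the stages overlapped in both (limma, adjusted p = 0.993 and 0.675).

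CAD feature 3 (Cluster-8914.46250) had a different pattern. It was listed at 0.20, 0 and 0 FPKM before and at 2.09, 2.43 and 1.04 FPKM after. The stages did not overlap, and it passed the test with a log2 difference of 1.39 ± 0.295 (SE, limma, adjusted p = 0.0374). It entered the measured set through its later libraries alone, so a difference was built into its selection. The call was lost without any 1 of the 6 libraries, with adjusted p from 0.0610 to 0.120, and at a pseudocount of 0.1 (0.0698). Summed over the 3 features, CAD measured 0.86, 0.94 and 4.19 FPKM before and 2.84, 5.45 and 4.30 FPKM after, with a log2 difference of 0.94 (95% interval -0.16 to 2.03, limma, adjusted p = 0.254). Of the remaining 2 features, the one nearest to the limit reached 0.89 FPKM in after replicate 1 and 0.44 FPKM or less elsewhere.

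**Figure D3:**
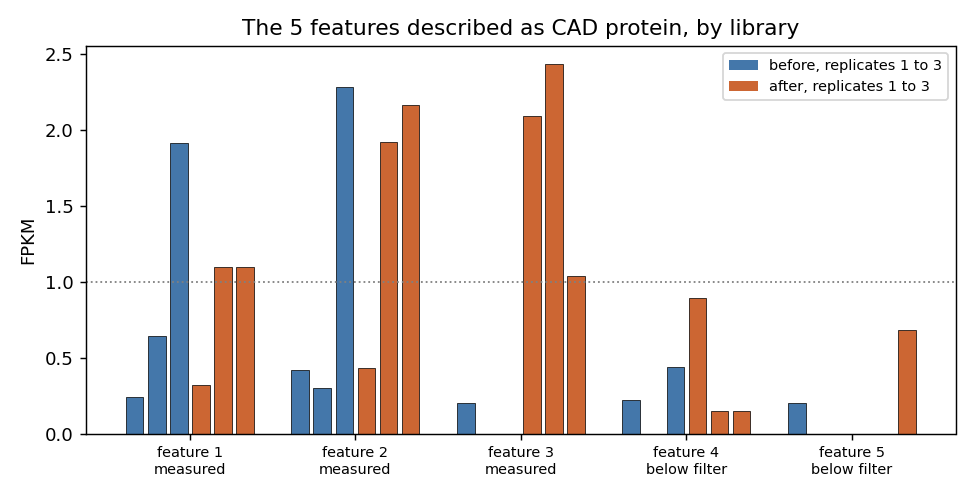
FPKM (y axis, from 0) of the 5 features described as CAD protein, with 1 bar per library in the order before replicates 1 to 3 (blue) and after replicates 1 to 3 (orange); the dotted line marks 1 FPKM. Features 1 and 2 are high in before replicate 3, whereas feature 3 is at 0.20 or less in all earlier libraries and at 1.04 or more in the later ones.

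CTP synthase 1 closes the pyrimidine route by turning UTP into CTP, which is used for RNA and DNA and also to activate choline, ethanolamine and phosphatidic acid for phospholipid synthesis. Its feature (Cluster-8914.28309, described as the 1-B form of Xenopus laevis) measured 3.94, 3.33 and 5.91 FPKM before. It measured 13.1, 20.4 and 20.1 FPKM after. The lowest later library was more than double the highest earlier one. The means were 4.39 ± 1.35 and 17.9 ± 4.12 FPKM (SD, n = 3 each), 4.06 times as high after, with a log2 difference of 1.81 ± 0.282 (SE, 95% interval 1.14 to 2.48, limma, adjusted p = 0.0173).

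The call for CTP synthase 1 depended on which libraries were used. It held without after replicate 1 or before replicate 3, but leaving out after replicate 2 (limma, adjusted p = 0.0705), after replicate 3 (0.0727), before replicate 1 (0.0654) or before replicate 2 (0.0531) ended it. The log2 difference stayed between 1.66 and 1.76 in those 4 fits. CTP synthase 2, a related enzyme of the same step, was lower in every later library, at 2.68, 3.22 and 2.45 FPKM before and 1.98, 1.54 and 1.4 FPKM after (log2 difference -0.52, adjusted p = 0.221). CTP synthase 1 stood at 1.47, 1.03 and 2.41 times CTP synthase 2 before and at 6.62, 13.2 and 14.3 times after. CTP synthase 2 and these ratios are named after their values were seen.

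**Figure D4:**
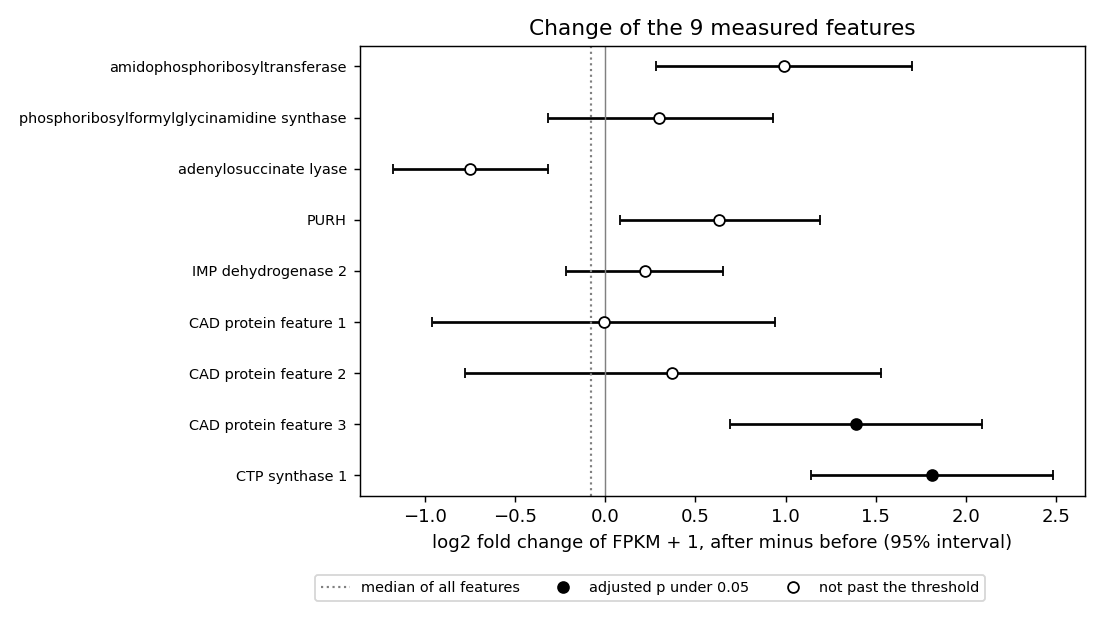
Log2 difference of FPKM + 1, after minus before (x axis), with its 95% interval from limma, for the 9 measured features in pathway order; filled points have an adjusted p under 0.05 and the dotted line is the median of all 40548 features, -0.08. CTP synthase 1 (1.81) and CAD feature 3 (1.39) are filled, and adenylosuccinate lyase (-0.75) is the feature with the lowest value.

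Of the 9 measured features, 2 were higher by the test, CTP synthase 1 and CAD feature 3 (22.2% against 4.64% of all features). By the same test 0 were lower (against 4.00%), while 5 had an unadjusted p under 0.05 against 26.6% of all features. The stages did not overlap in 5 of the 9, against 32.5% of all features, and the median log2 difference was 0.37. CAD feature 3 is in each of these counts although no earlier library of it reached 1 FPKM. Without it, and without the 2815 features of the whole table that likewise passed through 1 stage alone, 1 of 8 was higher against 3.71% of all features, and 0 were lower against 2.5%. The stages then did not overlap in 4 of 8 against 27.5%, and 4 of 8 had an unadjusted p under 0.05 against 21.9%. These shares over so few features are a description. With features summed per enzyme 1 of 7 was higher and 0 were lower, against 4.64% and 4.00% of all features in the fit of single features.

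The enzymes kept a similar order of abundance at both stages, with a wide range between them. IMPDH2 stood at the 98.2 percentile of the 40548 measured features before and at the 98.3 percentile after, and adenylosuccinate lyase at the 95.3 and the 91.8 percentile. CTP synthase 1 moved from the 66.2 to the 90.0 percentile and amidophosphoribosyltransferase from the 46.6 to the 73.4 percentile. Before fat accumulation the order by mean FPKM was IMPDH2, adenylosuccinate lyase, PURH, CTP synthase 1, amidophosphoribosyltransferase, CAD and phosphoribosylformylglycinamidine synthase. Afterwards CTP synthase 1 (17.9) stood above PURH (15.2), but their libraries overlapped, as did those of amidophosphoribosyltransferase and CAD at both stages and those of CAD and phosphoribosylformylglycinamidine synthase before.

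Summed over the 7 enzymes, the level was 143, 151 and 200.3 FPKM before and 184, 205 and 181 FPKM after. Before replicate 3 lay among the later libraries. That library also had the most features at 1 FPKM or more (49148), and whether this bears on the overlap was not tested. IMPDH2 made up 64.7% to 65.1% of this sum before and 62.7% to 67.5% after. Adenylosuccinate lyase held 21.8% to 25.1% before and 11.1% to 12.6% after. CTP synthase 1 went from 2.21% to 2.95% of the sum before to 7.13% to 11.1% after. The summed levels of the stages overlapped, while the shares of adenylosuccinate lyase and CTP synthase 1 did not. These shares do not depend on the library's scaling factor and were not tested.

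Other enzymes of nucleotide metabolism were read from 5 lists of protein names, and 36 of the 45 names were matched, by 60 measured features. Of these 5 were higher and 4 lower after fat accumulation, which is 8.33% and 6.67% against 4.64% and 4.00% of all features, with a median log2 difference of 0.00. Of the 60, 3 passed the filter through 1 stage alone, and none of these 3 was called. With such features left out, 5 of 57 were higher and 4 lower, which is 8.77% and 7.02% against 3.71% and 2.5% of all features. The median was then -0.09. The counts in the single lists are small, and 1 feature of a list of 19 is 5.26%, close to the share among all features. In the remaining synthesis enzymes and nucleotide kinases 1 of 19 features was higher and 0 lower, with a median of 0.06. That feature was 1 of those described as adenylate kinase 2, the mitochondrial enzyme that interconverts adenine nucleotides, at 39.7 ± 5.90 FPKM before and 72.7 ± 10.7 FPKM after (log2 difference 0.86, limma, adjusted p = 0.0464). The call was lost without any 1 of the 6 libraries (adjusted p from 0.0718 to 0.149), with quantile normalization (0.0692), with eBayes without a trend (0.0780) and with no filter (0.126). Another feature with the same description measured 17.4 FPKM before and 11.5 FPKM after (adjusted p = 0.199), so the total for this gene is not settled by either feature. Nucleoside diphosphate kinase A1, which evens out the triphosphate pools, was the most abundant on the list, at 6321 ± 1819 FPKM before and 4703 ± 1048 FPKM after (adjusted p = 0.375). Dihydroorotate dehydrogenase, the mitochondrial step between CAD and uridine monophosphate, had 1 feature at 1.18, 1.26 and 1.01 FPKM before and 2.49, 2.30 and 3.71 FPKM after (0.82, adjusted p = 0.0958) and another with overlapping stages (0.12, adjusted p = 0.901), and is named after its values were seen.

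Enzymes for making deoxynucleotides, the building blocks of DNA, had 6 measured features from 4 of 6 names. Thymidylate synthase and deoxycytidylate deaminase gave none. Of the 6 features 2 were higher (33.3% against 4.64% of all features) and 0 lower (against 4.00%), with a median of 0.78. The large subunit of ribonucleotide reductase, which turns ribonucleotides into deoxynucleotides, measured 5.44, 3.83 and 4.27 FPKM before and 13.5, 8.68 and 9.80 FPKM after (log2 difference 1.07, limma, adjusted p = 0.0472). Dihydrofolate reductase, which regenerates the folate used to make thymidylate, had 1 feature at 10.9 ± 2.71 FPKM before and 26.4 ± 5.28 FPKM after (1.21, adjusted p = 0.0362) and another at 7.84 ± 0.972 and 6.52 ± 0.616 FPKM (-0.23, adjusted p = 0.537). Both calls were lost without any 1 of the 6 libraries, and adjusted p then reached 0.125 and 0.120. With all 6 libraries both were also lost with no filter (limma, adjusted p = 0.129 and 0.101) and with a replicate block (0.104 and 0.0904). The reductase of ribonucleotides lost its call at a pseudocount of 0.1 (0.0524) and with eBayes without a trend (0.0550). Dihydrofolate reductase lost its call with quantile normalization (0.0561). The nucleotidohydrolase that clears dUTP measured 9.55 ± 0.119 FPKM before and 15.3 ± 0.542 FPKM after (0.63, adjusted p = 0.0743). Most markers of dividing cells, though not all, were higher in the same libraries as these features and CTP synthase 1. Of 12 measured features, from 4 of 6 such marker names, 8 were higher (66.7% against 4.64% of all features) and 0 lower (against 4.00%). Of the 12, 4 passed the filter through 1 stage alone. Among these 4 were 2 of the calls, MCM features that passed through the later libraries, so a rise was built into their selection. With such features left out, 6 of 8 were higher, which is 75.0% against 3.71% of all features. The 8 calls were PCNA, a clamp of the replication fork, and 7 features of the MCM helicase. A mitotic cyclin, described as like cyclin-B2, went the other way. It measured 1.12, 2.90 and 2.51 FPKM before and 0.87, 0.56 and 0.25 FPKM after (log2 difference -1.0, limma, adjusted p = 0.113). This feature passed the filter through its earlier libraries alone, so a difference was built into its selection. A feature described as cyclin-B2 passed through its later libraries alone. It measured 0, 0 and 0.82 FPKM before and 1.32, 2.17 and 1.07 FPKM after (1.02, limma, adjusted p = 0.119). Cyclin-dependent kinase 1 measured 3.20 FPKM before and 6.55 FPKM after on average (0.85, limma, adjusted p = 0.148). Cyclin-B3 overlapped between the stages (0.17, limma, adjusted p = 0.763). The summed level of the 12 features, of which PCNA made up 35.2 FPKM before and 106 FPKM after on average, was 49.3 to 68.1 FPKM before and 168 to 195 FPKM after, and the names DNA topoisomerase 2-alpha and antigen KI-67 gave no measured feature. The part of these markers in the results was not tested. In bulk RNA, fewer cells of a type and less RNA per cell cannot be told apart.

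Folate enzymes carry the carbon units that the purine ring takes up. Among 10 of their features 1 was higher (against 4.64% of all features) and 2 lower (against 4.00%), with a median of -0.30. Of the 10, 2 passed the filter through their later libraries alone, so a rise was built into their selection, and 0 of these were called. With these 2 features left out the median was -0.51. Serine hydroxymethyltransferase, which loads carbon from serine onto folate, differed between its forms. The mitochondrial form measured 17.1, 14.7 and 20.6 FPKM before and 35.8, 38.5 and 42.4 FPKM after (log2 difference 1.12, limma, adjusted p = 0.0225), while the soluble form measured 149.7, 163.5 and 207 FPKM before and 106.7, 90.95 and 83.96 FPKM after (-0.87, adjusted p = 0.0382). The cytosolic 10-formyltetrahydrofolate dehydrogenase, which removes the folate form that purine synthesis uses, fell from 12.9 ± 3.76 to 3.78 ± 2.05 FPKM (-1.59, adjusted p = 0.0440). The mitochondrial call held in 1 of the 6 fits with 1 library left out (highest adjusted p 0.0887), the soluble one in 0 (up to 0.125) and that of the dehydrogenase in 1 (up to 0.135). Over all 17 alternatives these calls held in 10, 8 and 9, in the same order. The most abundant features of the bifunctional methylenetetrahydrofolate dehydrogenase/cyclohydrolase measured 129.1 ± 24.8 and 82.1 ± 15.2 FPKM before and 80.6 ± 24.7 and 66.0 ± 13.1 FPKM after (adjusted p = 0.173 and 0.442).

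Salvage enzymes recover bases and nucleosides, and 7 of 10 names gave a measured feature. Hypoxanthine-guanine phosphoribosyltransferase, adenine phosphoribosyltransferase and deoxyguanosine kinase gave none, so the count does not cover them. Of 12 features 0 were higher (against 4.64% of all features) and 1 was lower (8.33% against 4.00%), with a median of 0.10. A cytosolic thymidine kinase feature passed the filter through its later libraries alone, so a rise was built into its selection, and it was not called. With such features left out, 0 of 11 were higher against 3.71% of all features, and 1 was lower, 9.09% against 2.5%. The median was then -0.04. A feature described as purine nucleoside phosphorylase, which frees the base from inosine and guanosine, was 181, 157 and 133 FPKM before and 16.98, 27.3 and 14.9 FPKM after. This was the lowest log2 difference among the 60 features, -2.97 ± 0.262 (SE, limma, adjusted p = 0.00422), and it passed in all 17 alternatives, with adjusted p up to 0.0355. A further feature, described as like that enzyme, measured 50.6 ± 11.7 FPKM before and 72.4 ± 11.8 FPKM after (0.52, adjusted p = 0.202). Adenosine kinase, which returns adenosine to AMP, measured 60.6 ± 8.93 and 78.4 ± 18.1 FPKM in its more abundant feature (0.35, adjusted p = 0.397).

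Purine breakdown in amphibians runs from xanthine through uric acid to allantoin and onward. Of 13 features for breaking down purines and pyrimidines, from 10 of 12 names, 1 was higher and 1 lower, with a median of -0.20. Each is 7.69%, against 4.64% and 4.00% of all features. Uricase and cytosolic purine 5'-nucleotidase gave no measured feature. Xanthine dehydrogenase/oxidase, which makes uric acid, fell from 147.6, 96.9 and 112.7 FPKM before to 57.2, 45.4 and 50.5 FPKM after (log2 difference -1.19, limma, adjusted p = 0.0225, held in 2 of 6 fits with 1 library left out, up to 0.0848). This call held in 11 of all 17 alternatives. Allantoinase opens the ring of allantoin. A feature described as like the mitochondrial allantoinase of the fish Clupea harengus rose from 1.17, 0.59 and 1.23 FPKM to 11.3, 12.5 and 12.3 FPKM. It had a log2 difference of 2.72 ± 0.236 (SE, limma, adjusted p = 0.00417) and passed in all 17 alternatives. Allantoicase, which acts after allantoinase and is named after its values were seen, measured 20.4, 18.8 and 22.6 FPKM before and 59.7, 33.1 and 40.8 FPKM after (1.04, adjusted p = 0.0516). A feature described as like 5-hydroxyisourate hydrolase, which acts between uric acid and allantoin, measured 235 ± 45.1 and 226 ± 70.2 FPKM (-0.09, adjusted p = 0.873). Beta-ureidopropionase, the last enzyme of pyrimidine breakdown, measured 106 ± 24.6 and 54.3 ± 14.6 FPKM (-0.96, adjusted p = 0.0664).

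**Figure D5:**
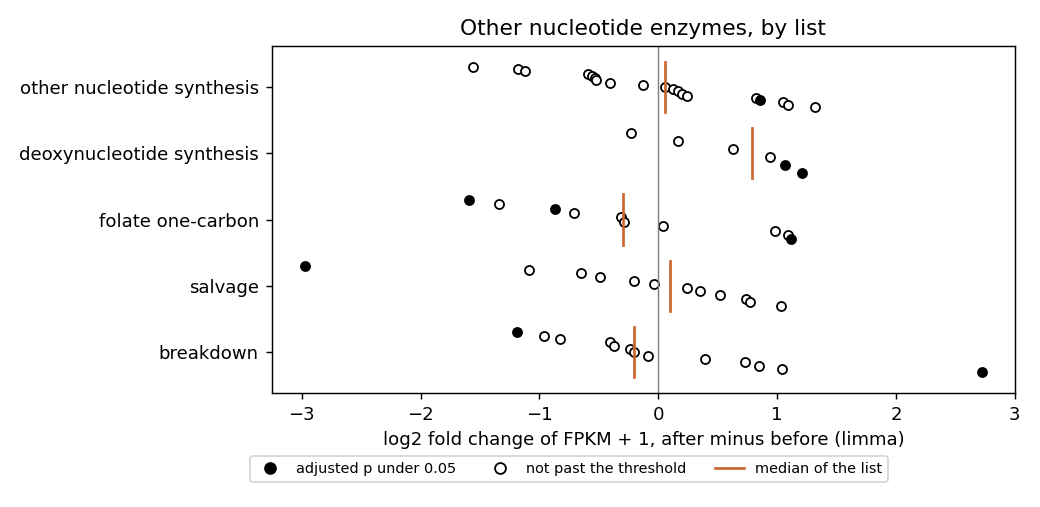
Log2 difference of FPKM + 1, after minus before (x axis), for the 60 measured features of 5 lists of other nucleotide enzymes; each point is a feature, filled where the adjusted p is under 0.05, and the orange bar is the list's median. The outermost points are a purine nucleoside phosphorylase feature at -2.97 and an allantoinase-like feature at 2.72.

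The labelled tissue was checked against marker names. Hepatocyte markers were present, with 7 of 8 names measured, but made up 0.387% to 0.432% of the summed FPKM before and 0.651% to 0.732% after. Their summed level was 5492 to 6231 FPKM before and 8921 to 10113 FPKM after (exact permutation test, two-sided, p = 0.1, the smallest that 3 against 3 libraries allow). Of their 9 features 3 were higher (33.3% against 4.64% of all features) and 0 lower (against 4.00%). The calls were serum albumin (45.0 to 456 FPKM on average), transthyretin (111 to 1258 FPKM) and an apolipoprotein A-I feature (7.34 to 86.5 FPKM). The other 6, among them transferrin and apolipoprotein B-100, did not pass the threshold. A further apolipoprotein A-I feature, among these 6 and with overlapping stages, made up the largest part of the summed level. It stood at 2674 of 5829 FPKM before and 4371 of 9470 FPKM after on average. Markers of the exocrine pancreas made up 21.4% to 33.3% of the summed FPKM before and 25.4% to 32.7% after, with 7 of 8 names measured. Of 34 features 2 were higher (5.88% against 4.64% of all features) and 5 lower (14.7% against 4.00%). The higher ones were carboxypeptidase B features, at 30.6 and 3.83 FPKM before and 2124 and 782 FPKM after on average. The lower ones had trypsin, chymotrypsin or colipase in their description. The summed level gave p = 0.9 (exact permutation test). It mostly follows 2 trypsin features, at 166290 and 107440 of 398596 FPKM before on average. With library totals taken without the exocrine pancreas markers CTP synthase 1 kept its call, and adenylosuccinate lyase gained one. That scaling divides each library by 1 factor, so it cannot remove enzyme transcripts that come from pancreas. Erythroid markers summed to 7549 to 9663 FPKM before and 10971 to 11868 FPKM after (4 of 5 names, 0 of 6 features higher or lower, exact p = 0.1). That sum mostly follows 2 hemoglobin alpha-3 features. They were at 5179 and 3589 of 8881.5 FPKM before and 6186 and 5095 of 11468.5 FPKM after on average. Leukocyte markers summed to 4166 to 8652 and 3087 to 6195 FPKM (4 of 7 names, 0 of 13 features higher or lower, exact p = 0.3). For both of these lists the shares over all features were 4.64% higher and 4.00% lower. A single feature, described as like lysozyme C-1, made up 6590 of 6893 FPKM before and 4601 of 4782 FPKM after on average. The sum and its p therefore mostly follow that feature. Receptor-type tyrosine-protein phosphatase C measured 1.04 FPKM before and 1.05 FPKM after on average. The part of each cell type in the enzyme levels was not tested.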

How the data were processed

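Per the labels' protocols, RNA extracted with Trizol was poly-A selected, fragmented, size-selected and sequenced from both ends on an Illumina HiSeq. The authors deposited a matrix of FPKM values for the 6 libraries, together with protein descriptions, per the file headers. For the assembler, aligner, quantifier and transcript lengths: not given in the sources used here. Fragment counts and counting intervals can therefore not be had, and no count model was fitted.

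Members were matched by name, ignoring case, in the opening entry of each description, and features with 1 FPKM or more in 3 or more libraries were kept (40548 of 121726). Stage differences in log2(FPKM + 1) were fitted in R 4.3.3 by limma 3.58.1 with eBayes and a trend, two-sided, no covariates, Benjamini-Hochberg adjusted over all kept features; for enzyme totals the kept rows of each protein were summed before the fit. Marker sums were compared with exact permutation tests (scipy 1.17.1, Python 3.11.15). Members and lists were chosen with earlier results of these data known. From the lists, 53 kept matches were left out because they name another protein. Named list genes were those past the threshold, up to 5 per list, and the 2 most abundant others; exceptions are stated. Alternatives covered pseudocounts, filters, scalings, eBayes settings, a replicate block and leaving out each library. The fit was tested on simulated data. Groups of 3 were not tested for outliers, and no libraries were identical. Reads shared between related features can make a single level uncertain.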

Additional observations from a re-analysis of the deposited data

How the results depend on the processing

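Counts moved with the processing. Over all 40548 features 1882 were called higher and 1620 lower. With no filter 634 and 433 of 111336 were, and with a filter at 5 FPKM 1706 and 1160 of 12750. Over the 40548 features, the calls were 1503 and 1118 at a pseudocount of 0.1 and 2741 and 2004 with median-of-ratios factors. They were 2563 and 2025 with quantile normalization and 2381 and 1908 with scaling without pancreas markers. With 1 library left out they lay between 392 and 1184 higher and between 299 and 917 lower. Of the 9 enzyme features 2 were higher and 0 lower. The higher count was 1 of 9 at a pseudocount of 0.1 and 4 of 9 with median-of-ratios factors. It was 1 of 14 with no filter and 1 of 4 with a filter at 5 FPKM. The lower count was 1 of 4 with the 5 FPKM filter. It was 1 of 9 with median-of-ratios factors, quantile normalization or scaling without pancreas markers. Without 1 library, 0 to 1 were higher and 0 to 0 lower. Of the 7 enzymes (1 higher, 0 lower) 3 were higher with median-of-ratios factors and 2 with quantile normalization. In the same 4 settings as above 1 was lower, with only 4 enzymes tested at the 5 FPKM filter. Without 1 library, 0 to 1 enzymes were higher. Of the 60 features of other nucleotide enzymes 5 were higher and 4 lower. The counts were 1 and 1 of 117 with no filter, and 10 and 6 of 37 at 5 FPKM. Of 60, 11 were higher and 5 lower with median-of-ratios factors, and 8 and 5 without pancreas markers. With 1 library left out the counts lay between 1 and 2 higher and 1 and 3 lower. Each count belongs beside the count over all features in the same setting. The cause of these shifts was not tested, except that leaving out a library leaves fewer samples and other filters test other numbers of features.

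With the replicate block, 194 features were higher and 145 lower, 0 enzyme features or enzymes were higher, and 1 other nucleotide feature was higher and 1 lower. Same-numbered libraries are linked in the labels by a number alone. Their deviations from the stage means correlated at -0.005, -0.039 and -0.088, and those of differently numbered libraries at -0.031 to 0.067. With 3 libraries per stage these correlations constrain one another, so they cannot show whether the libraries are paired. With the block the CTP synthase 1 difference had an adjusted p of 0.0661 (limma).

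Signs turned only in uncalled differences near 0. CAD feature 1 (-0.01) became 0.09 and 0.02 at pseudocounts of 0.1 and 0.5, 0.01, 0.05, 0.14 and 0.03 under the 4 scalings, and ran from -0.28 to 0.34 with 1 library left out (0.22 without after replicate 1, 0.34 without before replicate 3). Adenylosuccinate synthetase (0.06) became -0.12 with quantile normalization and ran from -0.06 to 0.2 with 1 library left out, and 5-hydroxyisourate hydrolase (-0.09) ran from -0.28 to 0.19 (0.01 without before replicate 1). Over the single features and enzymes, 493 of the alternative fits kept direction and side of the threshold, 78 lost a call, 18 gained one and 12 turned sign. An enzyme with a single measured feature entered these totals both as a feature and as an enzyme, so the fits are not independent.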
